A study of Mus musculus with 2 samples.

Results

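The 1121 regions described here are CTCF peaks that lie inside protein-coding sequence of the mouse genome. They were chosen by position alone, from the authors' optimal peak set on the mm10 assembly. A peak was taken when it lay on chromosomes 1 to 19, its summit fell in a coding (CDS) feature of a protein-coding gene in GENCODE vM21, and that summit was more than 1 kb from every annotated start site. The 1121 peaks were 1.83% of the 61263 optimal peaks on these chromosomes, while distal coding sequence, meaning coding sequence more than 1 kb from a start site, held 1.00% of the bases. The binding of CTCF was measured by chromatin immunoprecipitation and sequencing (ChIP-seq) in hindbrain from B6NCrl mice at postnatal day 0, with no treatment or mutant group. The study had 1 group of 2 libraries, labelled as biological replicates, and both came from pulverised hindbrains pooled over several dissections. Sex was not recorded, and a pool of tissue holds many cell types, so binding in fewer cells and weaker binding per cell cannot be told apart. The authors filtered the optimal set with the irreproducible discovery rate (IDR), which scores agreement in peak ranks. The sources used here do not state which lists were compared, so membership is not read as agreement between the 2 libraries. The deposited signal value of a peak is the authors' score on a scale that is not stated.

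CTCF is a zinc finger protein that recognises a long, GC-rich DNA sequence and halts cohesin as it extrudes chromatin loops. It is known for marking the borders of chromatin domains, for insulating promoters from enhancers and, in neurons, for the choice of clustered protocadherin promoters. Its core sequence is asymmetric, so each site points in a direction, and methylation of a CpG inside the core is known to weaken binding. Inside a coding exon the same bases also have to spell codons.

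The sequences below show how a CTCF core sits within codons. They are the strongest peaks at each reading frame and strand among those with at most 1 mismatch, further perfect matches, and a further strong match with 1 mismatch. Each is a run of 30 bases from the GRCm38 reference, read 5′ to 3′ on the coding strand of the gene. Capitals mark the 14 bases that matched the CTCF core consensus, on the coding strand (sense) or on the opposite strand (antisense).
Def6: cggcagaaCCGGCAGAGGGCAGacgaggac
Gdf15: ggtagccgCCGGCAGGGGGCGCcgaagcgc
Spata31d1d: cctcctttCCCCTAGGGGGCAGcagagtca
Trmu: cgattccgCCACCAGATGGCACtaggtgac
Lrrk1: cctgttcaCCACCAGAGGGCGCcagcgttc
Pcgf2: atcctccaCCAGCAGGGGGCGCaagatgac
Numa1: ggcctccgCCAGCAGGTGGAGCagctgagc
Zfp219: gcttccgaGCGCCCCCTGGCGGctacatct
Pgls: gcgcacggGCGCCCTCTGCTGGttcctgga
Slc8a3: gtccgtggCCGCCATCTACTGGgccatgca
Kif27: gctcgataGCGCCCTCCAGTGGccaactgc
The first 7 matches are sense and the last 4 are antisense. On the coding strand the first capital base was at codon position 3 in Def6, Trmu, Numa1 and Zfp219, at codon position 2 in Gdf15, Lrrk1, Pcgf2, Pgls and Slc8a3, and at codon position 1 in Spata31d1d and Kif27. Trmu, Lrrk1, Pcgf2, Pgls and Slc8a3 matched the consensus at all 14 bases. Counting from the 5′ end of the core on its own strand, the mismatch was A3G in Def6, Gdf15 and Zfp219, A3C in Spata31d1d, A6G in Kif27 and C12A in Numa1.

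Def6, which encodes a guanine nucleotide exchange factor of lymphocytes, held the strongest of the coding peaks. Its printed core lies in exon 9 of 11, numbered here over the coding exons of the principal transcript, at chr17:28226264-28226293 on the plus strand. The peak had a signal of 557, ranked 87 in the optimal set, and ranked 129 in the list of replicate 1 and 68 in that of replicate 2. Pgls, an enzyme of the pentose phosphate pathway, had a perfect antisense match in its last exon, exon 5 of 5, at chr8:71596107-71596136 on the plus strand. Its signal of 521 was below that of Def6 and of A830031A19Rik (555), with rank 151 in replicate 1 and rank 273 in replicate 2. Zfp219, a zinc finger transcription factor, had a signal of 518 in exon 2 of 4 at chr14:52008988-52009017 on the minus strand, with rank 326 in replicate 1 and 172 in replicate 2. The peaks in these 3 genes were near the top of both libraries. Gdf15, a stress-induced cytokine of the TGF-beta family, carried a signal of 475 in exon 2 of 2, with its core at chr8:70629886-70629915 on the minus strand. Slc8a3, a sodium-calcium exchanger of excitable cells, also had a signal of 475, in exon 7 of 7 at chr12:81199726-81199755 on the minus strand. Trmu, which modifies mitochondrial tRNAs, had a signal of 467 in exon 9 of 11 at chr15:85896480-85896509 on the plus strand. Numa1, which organises the mitotic spindle poles, had a signal of 439 in exon 13 of 24, a coding exon of 3360 bp, at chr7:101998687-101998716 on the plus strand. The kinase gene Lrrk1 (signal 428, exon 11 of 33, chr7:66300876-66300905, minus strand) and the Polycomb gene Pcgf2 (signal 423, exon 9 of 9, chr11:97690015-97690044, minus strand) held perfect sense matches, as did Trmu. Kif27, a kinesin of cilia, had a signal of 422 in exon 17 of 17 at chr13:58288029-58288058 on the minus strand, and Spata31d1d a signal of 382 in exon 4 of 4 at chr13:59728597-59728626 on the minus strand. The other peaks among the 12 strongest were in A830031A19Rik, Ksr1 (477), Adgrd1 (447), 1500009C09Rik (471) and Zswim5 (442). The Ksr1 summit is coding in 1 of its 4 spanning protein-coding transcripts, and A830031A19Rik and 1500009C09Rik are genes with provisional symbols, as were the genes of 27 of the 1121 peaks (2.41%). By signal in the optimal set, the weakest coding peaks were in Trank1 (8.05), Rps15 (7.33), a ribosomal protein gene, and Psmb2 (7.27), a proteasome subunit gene. Each had 3 or 4 mismatches at its best core. The library lists gave another order, with ranks in replicates 1 and 2 of 70699 and 68876 for Trank1 and 57316 and 63800 for Rps15. Psmb2 ranked 53080 and 35306, so it was not the weakest in either library.

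Coding sequence held more CTCF peaks per base than the other distal parts of the genome. Distal coding sequence carried 46.7 peaks per Mb, with a 95% exact Poisson interval of 44.0 to 49.6. The density was 37.9 per Mb in untranslated exons (1584 peaks), 25.5 in introns (24618 peaks) and 17.1 in intergenic sequence (20525 peaks), all more than 1 kb from a start site. The coding density was 1.23 times that of untranslated exons (exact 95% interval 1.14 to 1.33), 1.83 times that of introns (1.72 to 1.95) and 2.73 times that of intergenic sequence (2.57 to 2.90). Promoters within 1 kb of a start site were denser, with 85.9 per Mb. Peaks are not replicates of a condition, so these intervals cover counting error only, and no p-value is given for them. The distance from start sites moved with the density. With a limit of 500 bp the coding density was 51.1 per Mb and 1.93 times that of introns, and with a limit of 2.5 kb it was 40.8 per Mb and 1.70 times that of introns. The density of close core matches, with at most 1 mismatch, followed the same order, with 44.5 per Mb in coding sequence, 32.4 in untranslated exons, 25.3 in introns and 23.1 in intergenic sequence. Among chromosomes the density of coding peaks ranged between 35.2 per Mb on chromosome 2 (27.6 to 44.2) and 60.0 on chromosome 8 (47.1 to 75.4).

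**Figure D1:**
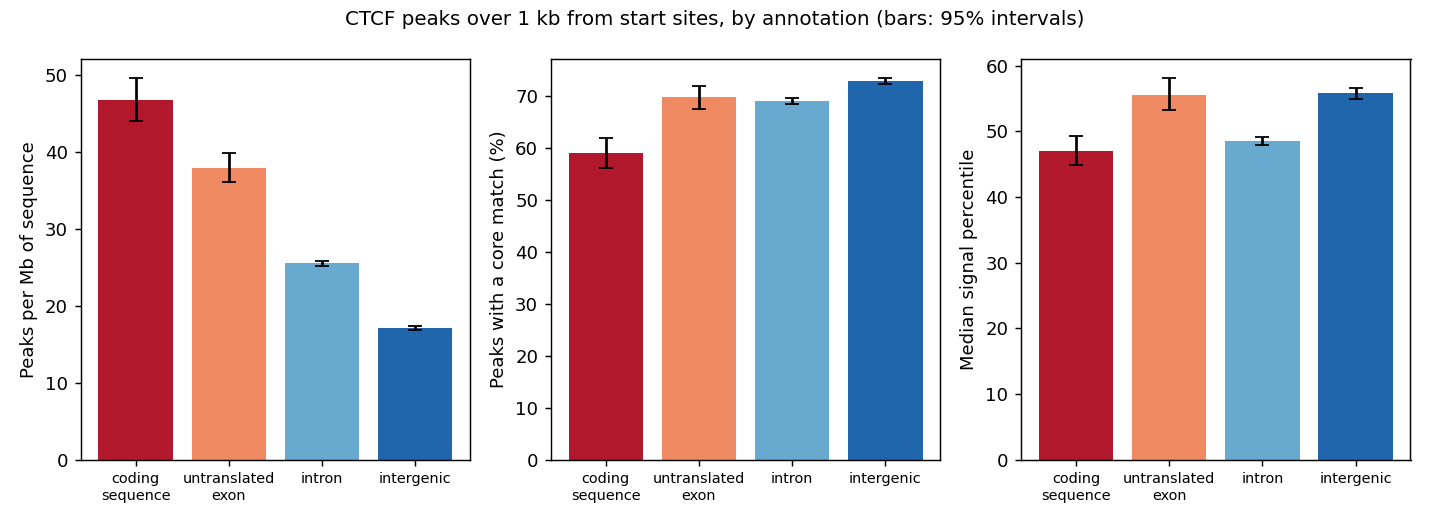
Peaks per Mb, share of peaks with a core match in percent, and median signal percentile within the optimal set, for coding sequence, untranslated exons, introns and intergenic sequence more than 1 kb from a start site; error bars are 95% intervals for counting error. Coding sequence has the highest density (46.7 per Mb) and the lowest share of peaks with a core match (59.0%), with a median percentile of 47.0.

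Coding peaks were of middling strength. Their median signal was 66.6 (quartiles 36.3 and 157), against 90.5 in untranslated exons, 70.1 in introns and 91.1 in intergenic sequence. Within the optimal set their median percentile was 47.0 (95% interval 44.9 to 49.3), against 55.6 for untranslated exons (53.3 to 58.1), 48.5 for introns (47.9 to 49.2) and 55.8 for intergenic peaks (55.0 to 56.5). The interval of coding peaks thus overlapped that of intron peaks and lay below both others. Split by signal into 10 equal groups, the optimal set held 76 coding peaks in its strongest group and 103 in its weakest, and 9 coding peaks were among its 1000 strongest.

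A match to the CTCF core was less common under coding peaks than under the other distal peaks. Both strands were searched for the consensus in the 50 bp to either side of the summit, with up to 2 mismatches. It was found in 661 of the 1121 coding peaks (59.0%, Wilson 95% interval 56.1 to 61.8), against 65.3% of all optimal peaks on these chromosomes. The share was 69.6% in untranslated exons, 69.0% in introns and 72.7% in intergenic peaks, and coding peaks were below each of these. The difference from intron peaks had a Newcombe 95% interval of -13.0 to -7.10 percentage points, that from untranslated exons was -10.7 points (-14.3 to -7.00) and that from intergenic peaks -13.8 points (-16.7 to -10.9). Promoter peaks had a lower share than coding peaks, 46.4%. Windows of the same length 1 kb to either side of the coding summits held a match in 2.85% and 3.21% of cases. The closeness of the match ran with signal: median signal was 245 in the 69 coding peaks with no mismatch, 127 in the 265 with 1, 65.0 in the 327 with 2, 49.2 in the 297 with 3 and 41.5 in the 147 with 4. With the coding peaks split by signal into 5 equal groups, weak to strong, the share with a match was 39.1%, 48.2%, 54.5%, 70.5% and 82.6%.

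The bases around the coding summits were GC-rich. Median GC within 50 bp of the summit was 58.4% in coding peaks, against 52.5% in untranslated exons, 51.5% in introns and 50.5% in intergenic peaks, and it equalled that of promoter peaks, 58.4%. Distal coding sequence as a whole was 51.0% GC and intron sequence 42.2%, so peaks in both classes were richer in GC than their class as a whole. A coding peak held a median of 4 CpG dinucleotides in that window, against 1 in intron peaks. Coding summits lay in a repeat in 36 cases (3.21%), against 22.9% of intron summits.

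A core match with at most 1 mismatch was occupied less often in coding sequence than in an intron or an untranslated exon. A match was counted as occupied when an optimal summit lay within 50 bp. Of the 85 matches without a mismatch in distal coding sequence, 69 were occupied (81.2%, Wilson 71.6 to 88.1), against 93.4% in untranslated exons, 87.1% in introns and 83.5% in intergenic sequence, where the whole genome on chromosomes 1 to 19 gave 84.6%. The difference from introns was -5.96 points, with an interval of -15.6 to 1.07 that includes 0. Of the 1067 coding matches with at most 1 mismatch, 327 were occupied (30.6%, 28.0 to 33.5), against 45.8% in untranslated exons, 37.2% in introns and 30.5% in intergenic sequence, with 35.0% over all. The difference of coding from intron matches was -6.57 points (-9.33 to -3.67), and that from untranslated matches was -15.1 points (-18.9 to -11.3). With up to 2 mismatches 6.66% of coding matches were occupied, against 8.39% of intron matches, but with up to 3 the order against introns turned, with 2.01% in coding sequence (1.91 to 2.11) against 1.89% in introns (1.87 to 1.91). With at most 1 mismatch, the difference from intergenic matches was 0.146 points, with an interval of -2.60 to 3.03.

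Occupancy went with a CpG inside the core, a split that was chosen after the values were seen. Bases 12 and 13 of the core can form a CpG or a C followed by A. Among coding matches with at most 1 mismatch, 147 of 301 with the CpG were occupied (48.8%), against 128 of 576 with CA (22.2%), a difference of 26.6 points (19.98 to 33.1). The same difference was 34.1 points in untranslated exons (72.5% with the CpG against 38.4%), 31.3 in introns (62.5% against 31.2%) and 41.2 in intergenic sequence (64.2% against 23.0%). Coding matches carried the CpG in 28.2% of cases, against 19.6% in untranslated exons, 16.8% in introns and 15.1% in intergenic sequence. Within the CpG matches, occupancy in coding sequence was thus below that in each other distal class. DNA methylation in this tissue was not analysed here.

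**Figure D2:**
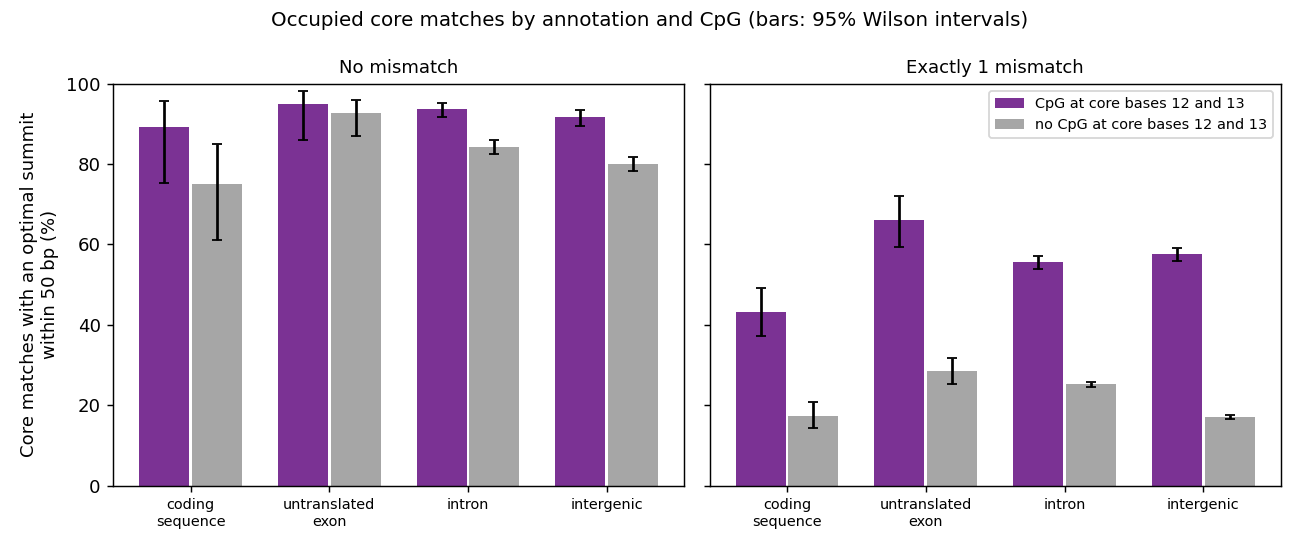
Share of CTCF core matches with an optimal summit within 50 bp, in percent, by annotation and by whether core bases 12 and 13 form a CpG (purple) or a C followed by A (grey, no CpG; other bases are not drawn), for matches with no mismatch (left) and exactly 1 (right); error bars are 95% Wilson intervals. With exactly 1 mismatch, 43.2% of coding matches with the CpG and 17.4% of those with CA were occupied.

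The base at which the core departed from the consensus also differed between coding and intron peaks, again in a split chosen after the values were seen. Of the 265 coding peaks whose best match had exactly 1 mismatch, 76 had it at base 3 of the core (28.7%), against 9.81% of the 6823 such intron peaks and 12.4% of the 5211 whose summit lay outside repeats. Against the last of these the difference was 16.3 points (11.1 to 22.1). The change was A3T in 48 of the 76 coding peaks, A3G in 19 and A3C in 9, and the printed Def6, Gdf15 and Zfp219 cores are of the second kind. At base 5 the order was the other way, with 29 coding peaks (10.9%) against 29.2% of intron peaks, but outside repeats the intron share was 15.3% and the interval of the difference, -7.76 to 0.0453 points, included 0. Such matches were also a larger share of coding sequence matches as a whole, occupied or not. Base 3 held the mismatch in 128 of the 982 coding matches with exactly 1 mismatch, and in 1278 of the 21940 in introns. Matches with their mismatch at base 3 were occupied in 74 of 128 cases in coding sequence (57.8%, 49.2 to 66.0) and in 53.1% of cases in introns (50.3 to 55.8). A mismatch at base 7 left 1 of 65 coding matches occupied (1.54%) and 3.13% of intron matches.

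The direction of the core relative to the gene and its place in the reading frame were set against matches that no peak covered. Of the 661 coding peaks with a match, 14 had equally good matches on both strands. Of the other 647, the core was sense in 288 (44.5%, 40.7 to 48.4), against 3787 of 7875 matches in distal coding sequence outside every pooled peak (48.1%). The difference was -3.58 points, with an interval of -7.52 to 0.430. The frame could be read for 549 matches that lay wholly inside 1 coding exon of the principal transcript. In sense matches the first base was at codon position 1 in 34.8%, position 2 in 12.2% and position 3 in 53.0% of 230 peaks, against 31.8%, 18.6% and 49.6% of the unbound matches. In antisense matches the shares were 24.8%, 26.6% and 48.6% of 319 peaks, against 29.2%, 22.2% and 48.6% of the unbound. Of these 6 differences, the interval excluded 0 only for sense matches at codon position 2 (-6.39 points, -10.2 to -1.38). With at most 1 mismatch in both sets that difference was -2.003 points, with an interval of -9.77 to 7.02.

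**Figure D3:**
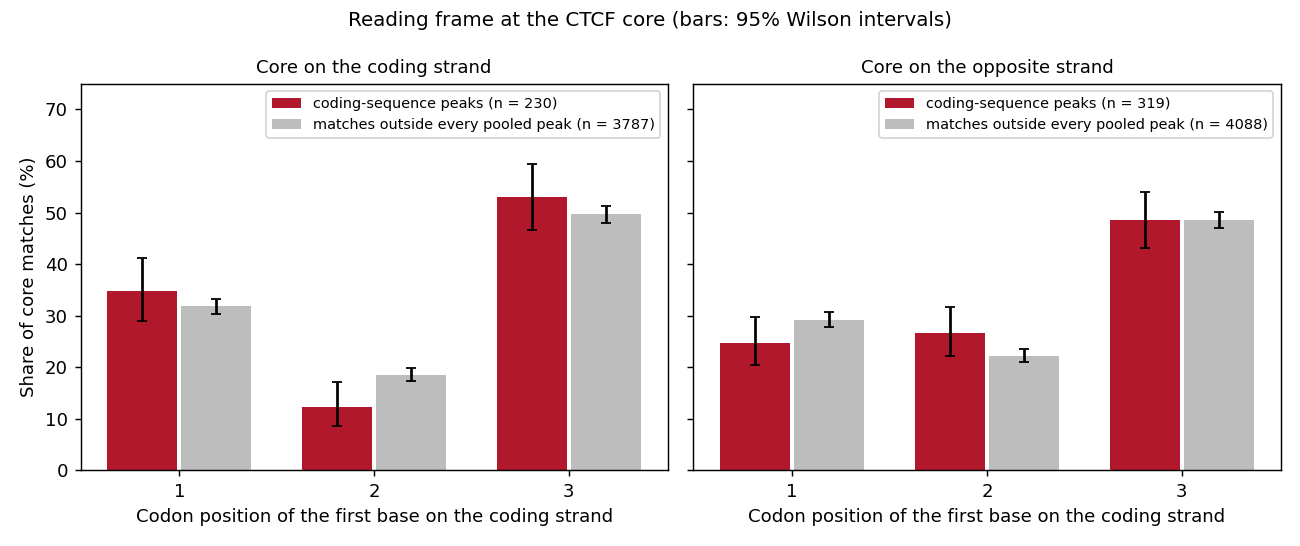
Codon position of the first base of the CTCF core match, as a percent of matches, in coding-sequence peaks (red) and in coding matches outside every pooled peak (grey), for cores on the coding strand (left) and on the opposite strand (right); error bars are 95% Wilson intervals. Codon position 3 leads in all 4 sets, with 53.0% of sense and 48.6% of antisense coding peaks.

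Within genes, coding peaks were densest outside internal exons. In the principal transcripts, which held 1073 of the 1121 summits, internal exons carried 665 peaks at 39.2 per Mb (36.3 to 42.3). Last coding exons carried 267 at 62.5 per Mb (55.2 to 70.5), first coding exons 65 at 67.8 (52.3 to 86.4) and single coding exons 76 at 67.9 (53.5 to 85.0). A core match was found in 60.8% of peaks in internal exons, 54.7% in last, 63.1% in first and 46.1% in single exons. Their median signals were 67.7, 68.0, 49.4 and 64.1 in the same order. Split into equal parts along the coding sequence, density was 40.0 per Mb in the 5′ part, 41.8 in the middle and 54.7 in the 3′ part (49.8 to 59.8). By exon length it was 37.0 per Mb under 150 bp, 46.0 between there and 300 bp, 60.9 between there and 1000 bp and 51.6 in longer exons, while the share with a core match was 63.8%, 59.5%, 53.1% and 53.6% in the same order. The median distance of a summit to the nearest end of its coding exon was 55 bp, and 498 of the 1073 lay within 50 bp of one. In 997 of the 1121 cases (88.9%, 87.0 to 90.6) the summit was coding in every protein-coding transcript that spanned it, against 89.6% of distal coding bases. In genes with at least 2 spanning transcripts this was 526 of 649 (81.0%, 77.9 to 83.9), against 83.5% of bases. The median distance to a start site was 4446 bp. The 360 coding peaks at 1 to 2.5 kb had a median signal of 63.4, a core match in 56.9% and a median GC of 61.4%, and the 761 farther ones 67.7, 59.9% and 57.4%. Just inside the limit, up to 1200 bp from a start site, 74 coding peaks had a median signal of 58.7, and just outside, over 800 bp away, 92 peaks in coding sequence had a median of 53.8.

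The coding peaks fell in 1034 of the 18254 protein-coding genes with distal coding sequence, 5.66%. Of these genes, 951 held 1 coding peak and 81 held 2, while Kif19a, a kinesin of motile cilia, held 3. Among cadherins outside the protocadherin clusters, which hold cells together, 14 of 47 genes (29.8%, 18.7 to 44.0) held a coding peak, at 84.2 per Mb of their distal coding sequence (46.0 to 141), an interval that just includes the 46.5 per Mb over all genes. The strongest were in Pcdh17 (signal 219), Cdh22 (175) and Cdh15 (105). Of 99 myosin, kinesin and dynein genes, 21 (21.2%) held a coding peak, at 51.2 per Mb, led by Kif13a (signal 432), Kif27 (422) and Kif19a (416). Of 12 spectrin, ankyrin and plakin genes, which link membranes to the cytoskeleton, 3 held a coding peak, with 41.2 per Mb (13.4 to 96.1), a range that includes the 46.5 over all genes. Their strongest peaks were in Dst (398), Sptbn4 (245) and Ank2 (194), and all 5 of their peaks had a core match. Long genes hold more sequence in which a peak can fall, which the share of genes does not take into account.

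Keratin genes held 8 coding peaks in 7 of 57 genes, at 178 per Mb (77.0 to 351), led by Krt88 (signal 244). Homeobox genes, the transcription factors that pattern the embryo, held 9 in 8 of 78 genes, at 211 per Mb (96.4 to 400.0). The list of 78 was partial, since Barx2, with a coding peak of signal 243, was not counted in it. Of the 9 peaks, 2 had a core match (22.2%), against 59.0% of all coding peaks. The 9 had a median signal of 49.6, against 66.6 for all coding peaks. The strongest, in Irx5 (signal 270) and Nkx2-2 (268), lay outside the principal coding sequence, in exons that other transcripts annotate as coding. Potassium channels held 12 in 11 of 87 genes, at 107 per Mb (55.1 to 186), led by the inward rectifier Kcnj9 (signal 313, no mismatch), Kcnh4 (263) and the glial inward rectifier Kcnj10 (165, no mismatch). Sodium and calcium channels held 5 in 4 of 39 genes at 39.1 per Mb, among them Cacna1b (159), Cacna1a (115) and Scn8a (110.3). Receptors for glutamate, GABA and glycine held 4 in 4 of 45 genes at 47.5 per Mb. Zinc finger genes held 19 in 18 of 453 genes at 25.5 per Mb (15.4 to 39.9) and solute carriers 14 in 13 of 354 at 32.0 per Mb (17.5 to 53.6). Of the 56 clustered protocadherin genes, 1 held a coding peak under this rule, at 11.4 per Mb (0.289 to 63.6). It lay in Pcdhgc3 (signal 82.1), 1016 bp from a start site and with 4 mismatches at its best core. Olfactory receptors held 2 peaks in 271 genes, at 18.8 per Mb (2.27 to 67.8). The 14 ephrin receptor genes held none in 0.0344 Mb, which allows up to 107 per Mb. The intervals of the clustered protocadherins, olfactory receptors and ephrin receptors each include the 46.5 per Mb over all genes. Of 25 hindbrain and glial marker genes with distal coding sequence, 1 held a coding peak, beside 5.66% of all protein-coding genes with such sequence. It was Gfap, the intermediate filament of astrocytes, with a signal of 312 and a rank of 6467 in replicate 1 and 6788 in replicate 2. None of 5 forebrain markers held any. With so few genes, neither count is read as a difference from the share over all genes, and peak positions do not identify the cell type.

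**Figure D4:**
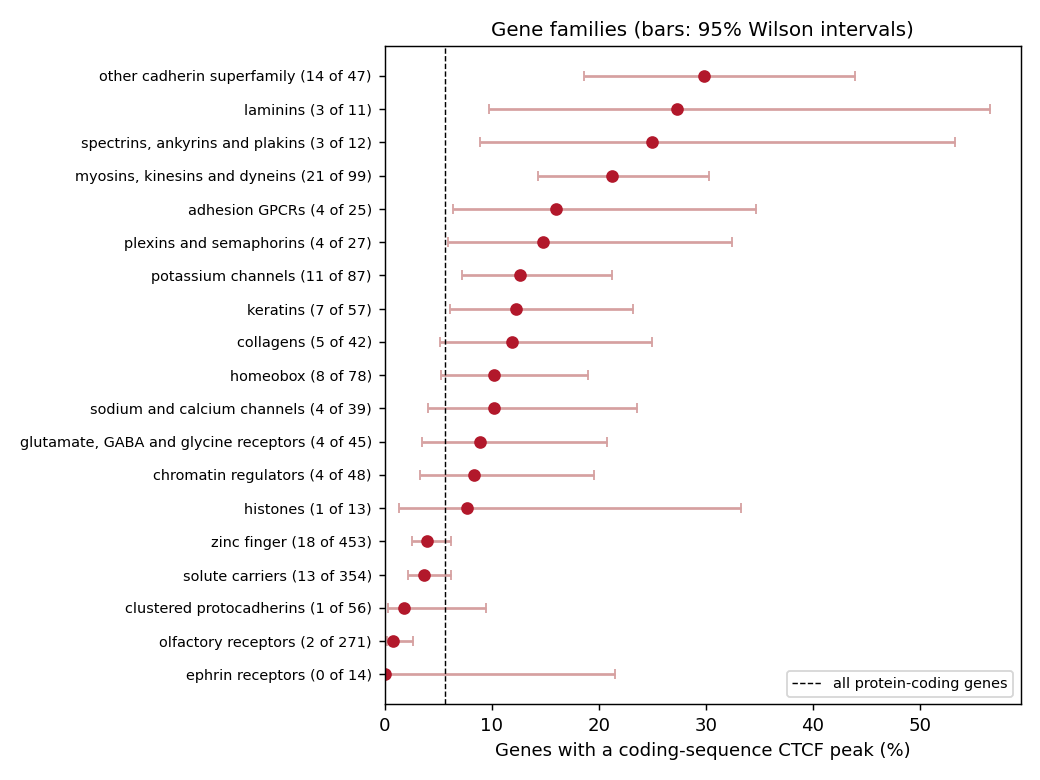
Share of the genes of each family that hold a coding-sequence CTCF peak, in percent, with the number of genes in brackets and 95% Wilson intervals; the dashed line is the share over all protein-coding genes, 5.66%. Cadherins outside the clusters (29.8%) and motor proteins (21.2%) are to the right of the line, and olfactory receptors are to its left.

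Of the 1121 coding peaks, 1118 (99.7%) overlapped a peak in each library's own list of 300000, against 99.5% of all optimal peaks. The optimal set was already filtered with IDR, and the lists compared for that filter were not stated. Of the 1121, 916 (81.7%) were among the 62686 strongest of both, against 82.8% of intron peaks and 83.2% of all optimal peaks. With the coding peaks in the 5 equal groups by signal, 46 of the 225 weakest (20.4%) and all of the 224 strongest were among the 62686 strongest of both libraries, and 48 of the 1121 were in neither. Over the coding peaks the ranks in the libraries had a Spearman correlation of 0.928, against 0.941 for intron peaks, given as a description since the peaks share the pooled tissue and the libraries. The stricter conservative set held 964 of the coding peaks (86.0%, 83.8 to 87.9), against 87.0% of all optimal peaks and 86.9% of intron peaks. It held 45.3% of the weakest of those 5 groups and all of the strongest. Close summits share fragments: 56 coding peaks had another within 1 kb, 20 shared their replicate 1 peak with another coding peak and 20 their replicate 2 peak, as did the pair in the last exon of Sema4a, an axon guidance gene, which matched 1 peak of replicate 2 at rank 23054.

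**Figure D5:**
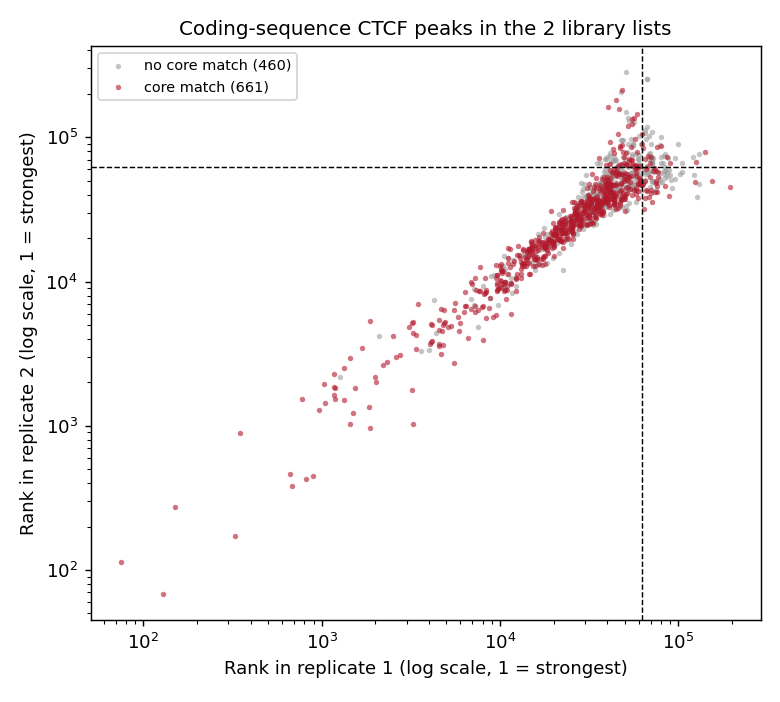
Rank of each coding-sequence peak in the list of replicate 1 (horizontal) and replicate 2 (vertical), both on log scales with 1 the strongest; red points have a core match (661) and grey points none (460), and dashed lines mark rank 62686. The points follow the diagonal, with a Spearman correlation of 0.928, and spread out toward the weak end.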

How the data were processed

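CTCF ChIP-seq peaks were measured in 2 libraries of 1 group. Per the file headers and labels, the deposited files are peak lists on mm10: 300000 peaks for each library, 251251 for both libraries pooled, and the optimal (62686) and conservative (59979) IDR sets, which the authors derived from the others. Aligner, caller and IDR limit were not given in the sources used here. As deposited, the signal value is a score on an unstated scale (7.04 to 685 in the optimal set), used within a list only. The deposited q value, on a −log10 scale, and the authors' IDR score ranked nothing here. The deposited summit offset in bp gave positions. The files hold no read counts, so depth is unknown and intervals cover counting error only.

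The reference was GRCm38.p6 with GENCODE vM21, and all sequences came from it. Each base got the first class that applied of promoter (up to 1 kb from any start site), coding, untranslated exon, noncoding exon, intron and intergenic. The 1423 optimal peaks not on chromosomes 1 to 19 were left out. Both strands were scanned for a 14-bp CTCF core consensus in the 50 bp around a summit, with at most 2 mismatches, or 1 for occupancy, and the whole match inside the window. It is given by name because its letters include ambiguity codes. The principal transcript was taken from the protein-coding transcripts of a gene where it had any. It was the one with the best APPRIS tag, then with the GENCODE basic tag, then with the longest coding sequence. Exon numbers count the coding exons of that transcript. Scripts used Python 3.11.15 with pandas 2.3.3, numpy 2.4.6, scipy 1.17.1 and matplotlib 3.10.9, and were tested on simulated data.

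Named genes are the 12 strongest and 3 weakest coding peaks, up to 3 peaks a family, genes with 4 or more peaks, the 10 strongest perfect matches, the strongest peak of each frame and strand, and markers. A result that needs an item withheld here is not reported. The members and lists were chosen with earlier results of these data known. Alternatives covered the start-site limit, motif window and mismatches, annotation, peak set and each library.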

Additional observations from a re-analysis of the deposited data

How the results depend on the processing

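Of 122 recomputed values, 102 stayed close to the reported one, by the spread of 1 value or within 1.5 times for counts, and 20 moved. With only the stronger 50% of the optimal set, 518 coding peaks in 496 genes were left, at 21.6 per Mb, with a median percentile of 43.2 within it, a core match in 73.6%, occupancy of 21.6% and 100% in the conservative set. Density was 51.1 per Mb with a start-site limit of 500 bp and 40.8 with 2.5 kb, where median GC was 57.4%. With 50% of the peak length required inside coding sequence, the median percentile was 49.7, above the 48.5 of intron peaks, median GC 60.4% and the share coding in all spanning transcripts 86.5%. That share was 92.2% with principal transcripts alone. A core match was found in 29.8% of coding peaks with at most 1 mismatch, 85.5% with 3, 49.1% within 25 bp and 64.2% within 100 bp. Occupancy was 26.7% within 25 bp and 2.01% with 3 mismatches, where the order against introns turned, since 1.89% of intron matches were occupied. The cause of these moves was not tested beyond the rule that each setting changes.

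From the strongest peaks of either library alone, leaving the other out, the coding peaks numbered 1120 to 1127 in 1030 to 1037 genes. Density was 46.7 to 47.0 per Mb, median percentile 46.9 to 47.5, core match 58.3% to 59.6%, sense share 44.1% to 46.2% and codon position 3 over both strands 49.2% to 51.2%, where both libraries gave 50.5%. Occupancy was 30.2% to 31.2%, median GC 58.4% to 59.4%, the share coding in all transcripts 88.2% to 88.6% and the conservative share 86.0% to 86.7%. The conservative share has no value within the conservative set, nor do density and occupancy under the 50% rule. No paired analysis was possible because there is 1 group of 2 libraries. Without read counts, the depth behind weak peaks is unknown.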
